A study of Homo sapiens with 18 samples.

Results

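Interferon-stimulated genes are the genes that cells switch on when interferon binds its receptors, or when sensors of foreign nucleic acid are engaged. The panel described here was a list of 43 such genes, each found by its symbol in the platform annotation of an Illumina array. Of these, 42 were found, DDX58 under its current symbol RIGI, and 1 of the 43 listed genes was not analysed here. A gene counted as measured when a probe was detected, at a detection p under 0.01, on at least 3 of the 18 arrays. That held for 40 members of the panel, out of 11600 genes measured in all. GBP3 and RSAD2 each had 1 probe, detected on 0 arrays.

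The arrays came from 6 established human pancreatic cancer cell lines, with 3 arrays per line that the design text calls biological triplicates. MiaPaCa2, Panc1 and SU8686 are labelled resistant to dasatinib, a drug that inhibits SRC, ABL and other kinases. The sensitive lines by their labels are Panc0403, Panc0504 and Panc1005. The labels name no drug or interferon given to the cells before RNA was taken, so the values describe untreated cultures as far as the labels go. The design asks what sets resistant lines apart from sensitive ones. The array codes place the lines on 3 slides of 6 arrays each. Slide 1 carried Panc0403 at its earlier places and Panc0504 at its later places, slide 2 carried Panc1005 and then SU8686, and slide 3 carried MiaPaCa2 and then Panc1. Line and place on the slide therefore cannot be told apart, and slides 1 and 3 each held lines of a single response.

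Type I interferons act through a receptor at the cell surface whose kinases activate a transcription factor complex, ISGF3, in which IRF9 is the subunit that contacts DNA. ISGF3 binds a short element, the ISRE, upstream of its targets, and type II interferon acts through a different element, the GAS. The targets include RNA sensors, enzymes that degrade or block foreign RNA, GTPases, membrane proteins that hinder viral entry and exit, and the ubiquitin-like modifier ISG15. Tumour cells can keep part of this programme on without added interferon.

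Promoter windows from RefSeq (GRCh38.p14), running from 250 bases before to 50 bases after an annotated start, were found for 31 of the 40 measured members. A core of the ISRE, the letters GAAA, any 2 bases and GAAA again, was searched on both strands and overlapping matches were kept. It occurred in at least 1 window of 21 members (67.7%), and in 25 of the 41 windows of these members, against 3.57% of all 35116 windows of the same length. The letters TTCNNNGAA, a core of the GAS, occurred in 10 members (32.3%) and in 11 of their 41 windows, against 7.66% of all windows. IFI27, IFIT1, ISG15 and IFITM3 are shown because the level of each, described below, carries one of the differences between lines or arrays. IFI27 lies at chr14:94110486-94110785 on the plus strand, IFIT1 at chr10:89392373-89392672 on the plus strand, ISG15 at chr1:1013247-1013546 on the plus strand and IFITM3 at chr11:320811-321110 on the minus strand. Each is written 5′ to 3′ in the direction of transcription, and capitals mark the ISRE core or its reverse complement.
IFI27: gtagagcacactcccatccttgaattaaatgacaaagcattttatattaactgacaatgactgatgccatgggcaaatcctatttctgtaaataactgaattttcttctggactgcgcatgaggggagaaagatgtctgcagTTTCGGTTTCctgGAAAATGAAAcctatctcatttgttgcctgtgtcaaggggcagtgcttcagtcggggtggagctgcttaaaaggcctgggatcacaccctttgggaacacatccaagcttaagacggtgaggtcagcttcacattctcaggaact
IFIT1: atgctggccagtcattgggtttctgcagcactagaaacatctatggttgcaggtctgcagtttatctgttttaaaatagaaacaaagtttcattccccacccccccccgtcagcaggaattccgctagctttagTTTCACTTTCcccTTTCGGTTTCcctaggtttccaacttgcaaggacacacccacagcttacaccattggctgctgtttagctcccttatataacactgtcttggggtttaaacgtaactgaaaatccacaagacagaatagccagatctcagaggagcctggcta
ISG15: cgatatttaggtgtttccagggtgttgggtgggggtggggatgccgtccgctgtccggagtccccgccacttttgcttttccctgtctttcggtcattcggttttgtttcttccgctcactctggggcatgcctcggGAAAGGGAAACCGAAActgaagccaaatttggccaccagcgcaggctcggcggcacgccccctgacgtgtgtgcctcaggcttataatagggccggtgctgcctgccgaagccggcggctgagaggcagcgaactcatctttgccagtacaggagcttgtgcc
IFITM3: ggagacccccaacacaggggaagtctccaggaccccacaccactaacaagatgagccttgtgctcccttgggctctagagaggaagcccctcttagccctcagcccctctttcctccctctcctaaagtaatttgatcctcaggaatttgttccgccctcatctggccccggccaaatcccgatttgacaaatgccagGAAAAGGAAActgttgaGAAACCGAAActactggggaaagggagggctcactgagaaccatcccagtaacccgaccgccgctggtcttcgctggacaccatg
Each of these windows held 2 matches. In IFI27 the 2 matches lie on opposite strands, in IFIT1 both lie on the strand opposite to the one shown, and in ISG15 they overlap. A match is a description of letters and not a measured binding site.

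Replicate 2 of every line stood apart from replicates 1 and 3. Over the 11600 genes the correlation between replicates 1 and 3 was 0.994 to 0.996, and that of replicate 2 with them 0.851 to 0.897. That range overlapped the one between lines on different slides in replicates 1 and 3 (0.745 to 0.890), whereas the differently named lines of a slide correlated with each other at 0.964 to 0.983 in replicates 1 and 3 and at 0.915 to 0.991 in replicate 2. Arrays of a slide were thus more alike across line names than replicate 2 was to its own line, and whether these names hold the lines they state was not tested. Epithelial markers and the fibroblast markers COL1A1, COL1A2 and COL3A1 also differed between replicate 2 and the other arrays of MiaPaCa2 and Panc1. In these lines the summed log2 level of 6 epithelial markers was 12.3 to 12.4 on replicates 1 and 3 but 14.99 and 14.68 on replicate 2. The summed level of 6 fibroblast and endothelial markers was 13.31 to 13.97 on those replicates and 8.78 and 8.89 on replicate 2. That fall lay in COL1A2 and COL3A1. In MiaPaCa2 and Panc1, COL1A2 averaged 12.97 and 13.69 on replicates 1 and 3 but read 5.59 and 5.74 on replicate 2. COL3A1 averaged 11.1 and 11.08 but read 5.22 and 5.4. COL1A1 went the other way, from 5.44 and 5.15 to 8.005 and 8.15. LUM and the endothelial markers PECAM1 and CDH5 were detected on 0 arrays of either line. Replicates 1 and 3 are therefore described apart from replicate 2, a line name below means the arrays that carry it, and 31% to 35% of probes were detected per array.

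In replicates 1 and 3 the panel was brightest in SU8686 and dimmest in MiaPaCa2 and Panc1. The median level over the 40 members, in normalized log2 intensity, was 10.38 in SU8686, 9.38 in Panc0504, 9.34 in Panc1005, 8.52 in Panc0403, 7.17 in Panc1 and 6.36 in MiaPaCa2. SU8686 was the highest line for 35 of the 40 members, against 12.2% of all measured genes, and MiaPaCa2 the lowest for 22, against 17.1%. On both replicates 1 and 3, 39 members were detected in SU8686, 33 in Panc0504, 33 in Panc1005, 31 in Panc0403, 25 in Panc1 and 22 in MiaPaCa2. All 40 members differed among the 6 lines in limma's moderated F test (adjusted p under 0.05, Benjamini-Hochberg over 11600 genes), and so did 91.9% of all genes, so this count does not single out the panel. In each line replicates 1 and 3 lay close together: the largest gap for any member was between 0.405 and 0.944, and 0 members were 1 or more apart.

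**Figure D1:**
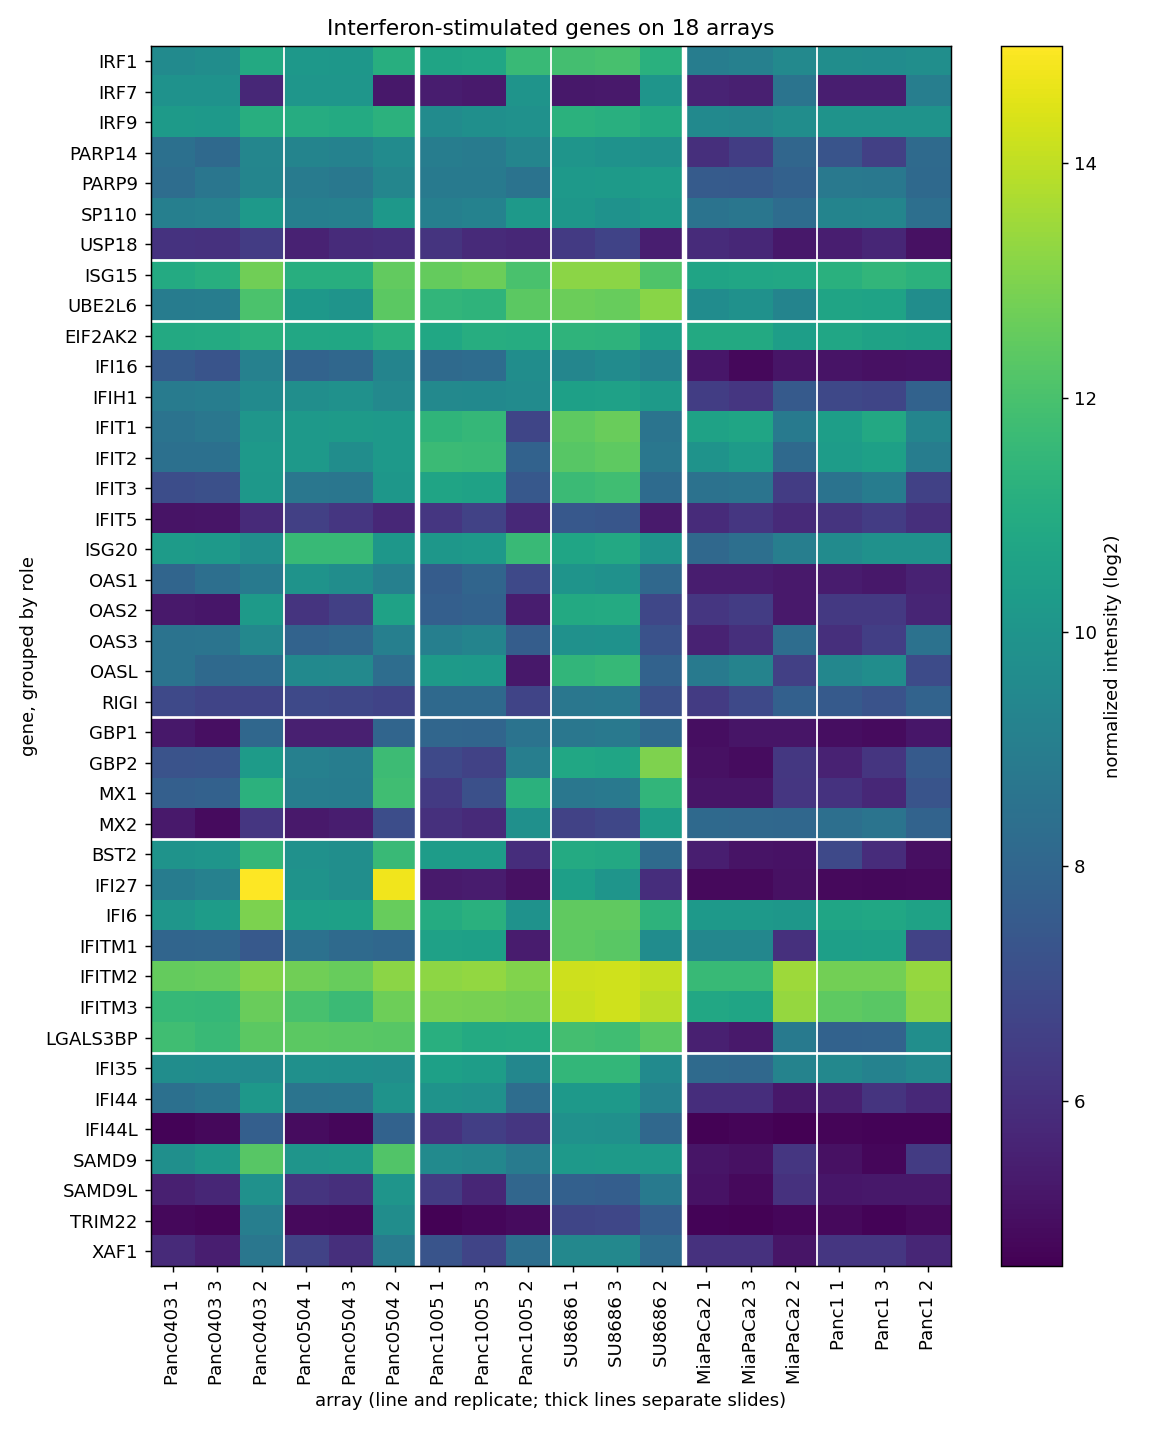
Normalized log2 intensity of the 40 measured interferon-stimulated genes (rows, grouped by role) on the 18 arrays (columns, by line, with replicate 2 to the right of replicates 1 and 3). Replicates 1 and 3 of SU8686 form the brightest pair of columns for 35 of the 40 genes, and the replicate 2 column of a line differs from its neighbours.

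Among the transcription factors, IRF9 was detected on all 18 arrays. Its level on replicates 1 and 3 was 10.27 and 10.23 in Panc0403, 11.04 and 10.97 in Panc0504, 9.62 and 9.75 in Panc1005, 11.25 and 11.15 in SU8686, 9.52 and 9.43 in MiaPaCa2, and 9.93 and 9.93 in Panc1. SU8686 and Panc0504 led, and their gap of 0.19 did not pass the test (adjusted p = 0.0683). Replicate 2 of IRF9 read 11.12, 11.28, 9.87, 10.93, 9.70 and 9.93 in the same line order.

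IRF1, a transcription factor induced by type I and especially type II interferon, read 9.58 and 9.67 in Panc0403, 10.13 and 10.10 in Panc0504, 10.67 and 10.77 in Panc1005, 11.91 and 11.97 in SU8686, 9.0 and 9.14 in MiaPaCa2, and 9.68 and 9.65 in Panc1. SU8686 was above Panc1005, the next line, by 1.22 (adjusted p = 8.57e-06). The replicate 2 arrays of IRF1 read 10.91, 11.12, 11.63, 11.22, 9.48 and 9.73, so that Panc1005 and not SU8686 was highest there.

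IRF7, which amplifies the production of type I interferon, was either on or off. On replicates 1 and 3 it read 9.88 and 9.88 in Panc0403 and 10.06 and 10.05 in Panc0504, but only 5.41 and 5.36 in Panc1005, 5.25 and 5.30 in SU8686, 5.64 and 5.49 in MiaPaCa2, and 5.44 and 5.45 in Panc1. Replicate 2 reversed this in all 6 lines, at 5.73 in Panc0403, 5.27 in Panc0504, 9.98 in Panc1005, 10.01 in SU8686, 8.61 in MiaPaCa2 and 9.04 in Panc1. The readings of 5.25 to 5.73 were not detected, and the bright readings were at least 14.6-fold above replicate 2 in Panc0403 and 15.1-fold in Panc0504. In the other lines replicate 2 was at least 14.2-fold (Panc1005), 14.8-fold (SU8686), 5.88-fold (MiaPaCa2) and 7.76-fold (Panc1) above replicates 1 and 3. No line gave the same detection call for IRF7 on all 3 of its arrays.

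ISG15 was detected on all 18 arrays. It read 10.94 and 11.12 in Panc0403, 11.10 and 11.12 in Panc0504, 12.56 and 12.65 in Panc1005, 13.21 and 13.17 in SU8686, 10.67 and 10.74 in MiaPaCa2, and 11.22 and 11.46 in Panc1. Panc1005 and SU8686, the lines of slide 2, stood above the other lines, and SU8686 exceeded Panc1005 by 0.59 (adjusted p = 0.00178). On replicate 2 the lines of slide 1 led instead, at 12.75 in Panc0403 and 12.52 in Panc0504, against 12.02 in Panc1005, 12.13 in SU8686, 10.82 in MiaPaCa2 and 11.27 in Panc1.

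IFIT1, which binds foreign RNA by its end and blocks its translation, read 8.56 and 8.73 in Panc0403, 10.22 and 10.26 in Panc0504, 11.42 and 11.53 in Panc1005, 12.43 and 12.63 in SU8686, 10.58 and 10.71 in MiaPaCa2, and 10.44 and 10.86 in Panc1. MiaPaCa2 and Panc1, dim for most members, were not dim for IFIT1: both lay above the slide 1 lines, and the gap of 0.00 between them did not pass the test (adjusted p = 0.985). Its replicate 2 readings were 10.06, 10.21, 6.76, 8.58, 8.86 and 9.33 in the same order, so the lines of slide 2, highest on the other arrays, were the lowest there.

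OAS1, an enzyme whose product activates RNase L, was detected on all 3 arrays of the lines of slides 1 and 2 and on 0 arrays of slide 3. It read 8.0 and 8.38 in Panc0403, 9.94 and 9.68 in Panc0504, 7.62 and 8.0 in Panc1005, and 9.96 and 9.85 in SU8686. Replicate 2 read 8.89, 9.14, 6.88 and 8.10 in these lines, and the 6 arrays of slide 3 read 5.28 to 5.57, below all of them.

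RIGI, the sensor of short viral RNA with a triphosphate end, varied less: 6.89 and 6.74 in Panc0403, 6.90 and 6.82 in Panc0504, 8.14 and 8.14 in Panc1005, 8.70 and 8.76 in SU8686, 6.41 and 6.89 in MiaPaCa2, and 7.55 and 7.27 in Panc1. The lines of slide 2 were the highest. On replicate 2 they were not: the readings were 6.70, 6.67, 6.73, 7.13, 7.80 and 7.89, with the lines of slide 3 on top.

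The dynamin-like GTPase MX1 read 7.74 and 7.83 in Panc0403, 9.02 and 8.95 in Panc0504, 6.35 and 7.14 in Panc1005, 8.71 and 8.79 in SU8686, 5.16 and 5.16 in MiaPaCa2, and 6.10 and 5.73 in Panc1. Panc0504 and SU8686 were the highest lines, and the gap of 0.23 between them did not pass the test (adjusted p = 0.363). Replicate 2 was above both other arrays in every line, at 11.30, 11.80, 11.23, 11.46, 6.25 and 7.30.

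BST2, the membrane protein tetherin that holds budding virus at the cell surface, read 9.92 and 10.01 in Panc0403, 9.86 and 9.71 in Panc0504, 10.36 and 10.36 in Panc1005, 10.94 and 10.89 in SU8686, 5.45 and 5.12 in MiaPaCa2, and 6.87 and 5.92 in Panc1. The lines of slides 1 and 2 lay well above those of slide 3, and no gap between neighbours among the 4 bright lines passed the test (gaps 0.18 to 0.55, adjusted p 0.0995 to 0.601). Replicate 2 read 11.52, 11.67, 5.96, 8.20, 5.11 and 5.0, and was not detected in Panc1005, at least 20.8-fold below its other arrays.

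Within slide 1, Panc0504 exceeded Panc0403 for most called members. In replicates 1 and 3, 24 of the 40 members were called at an adjusted p under 0.05, against 42.3% of all genes. Panc0504 was higher for 23 (22.4% of all genes) and lower for 1 (19.9%), and 11 members were called and at least 1 higher on the log2 scale (3.56%). The median difference over the 40 members was 0.43, with 35 above 0, against 0.02 over all genes. By role, 10 of 13 sensors and RNA-binding effectors were called higher, as were 4 of 7 signalling genes and 3 of 4 GTPases. So were 4 of 7 membrane and trafficking proteins (a group that includes LGALS3BP), 1 of 3 genes of the ISG15 system and 1 of 7 other effectors. In this and the later role counts USP18 is counted both among the signalling genes and in the ISG15 system. One of the called GTPases, GBP1, was not detected on replicates 1 and 3 of either line (5.51 and 5.14). The exception was OAS3, of the same enzyme family as OAS1, which was lower by 0.61 in Panc0504 (SE 0.178, adjusted p = 0.0207).

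GBP2, a guanylate-binding GTPase, had the largest difference on slide 1. It read 7.27 and 7.28 in Panc0403 and 9.13 and 9.0 in Panc0504, a difference of 1.79 (SE 0.170, adjusted p = 3.1e-05). Next came OAS1 at 1.62 (SE 0.158, adjusted p = 3.63e-05), IFIT3 at 1.60 (SE 0.129, adjusted p = 1.23e-05) and IFIT1 at 1.59 (SE 0.137, adjusted p = 1.77e-05). IFIT3, the partner that stabilises IFIT1, read 7.05 and 7.15 in Panc0403 and 8.73 and 8.67 in Panc0504. None of these 4 pairs of arrays overlapped between the lines.

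On replicate 2 of slide 1 the difference was small for nearly all members. With 1 array per line there is no test, and a difference of at least 1 was found for 1 member, against 0.733% of all genes. That member was GBP2 (0.534% of all genes were as far higher), at 10.32 in Panc0403 and 11.71 in Panc0504, a difference of 1.39. MX2 followed at 6.25 and 7.05 (0.79), and TRIM22, a tripartite motif protein, at 9.02 and 9.68 (0.66). The median difference over the 40 members was 0.09, with 24 above 0.

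On slide 2, SU8686 exceeded Panc1005 for nearly the whole panel. In replicates 1 and 3, 37 of the 40 members were called (37.7% of all genes), all 37 of them higher in SU8686 (20.3%) and 0 lower (17.4%). The median difference was 1.05, with 39 members above 0, and 21 members were called and at least 1 higher (3.69%). All 13 sensors and RNA-binding effectors, all 4 GTPases and all 3 genes of the ISG15 system were called higher. So were 6 of 7 signalling genes, 6 of 7 membrane and trafficking proteins and 6 of 7 other effectors. USP18, called higher, is counted both among the signalling genes and in the ISG15 system. The members that were not called were IRF7, at -0.10 (adjusted p = 0.35), BST2, at 0.55 (adjusted p = 0.0995), and IFI44, an interferon-induced protein of less defined function, at 0.33 (adjusted p = 0.17). In SU8686 the labels combine a resistant line with the later places of the slide, and Panc1005 is sensitive, so response, line and place cannot be told apart here.

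IFI27, a small hydrophobic membrane protein, showed the widest gap of any member. It read 5.34 and 5.36 in Panc1005, where it was not detected, and 10.45 and 10.03 in SU8686, at least 16.99-fold higher (adjusted p = 2.54e-08). GBP2 read 6.89 and 6.63 in Panc1005 and 10.79 and 10.72 in SU8686, a difference of 4.0 (SE 0.170, adjusted p = 5.03e-07). IFI44L read 6.07 and 6.53 in Panc1005 and 9.87 and 9.80 in SU8686, a difference of 3.54 (SE 0.140, adjusted p = 3.22e-07). OAS2, of the OAS1 family, read 7.75 and 7.88 against 10.92 and 10.96, a difference of 3.13 (SE 0.130, adjusted p = 4.62e-07). In all 4 genes both SU8686 arrays were above both Panc1005 arrays.

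Replicate 2 of slide 2 kept part of this. A difference of at least 1 was found for 17 members (19.7% of all genes), 16 higher in SU8686 (10.3%) and 1 lower (9.41%). The median difference was 0.81, with 30 members above 0. IFITM1, which hinders the fusion of viral with cell membranes, read 9.65 in SU8686 and 5.37 in Panc1005, where it was not detected, at least 12.7-fold higher. GBP2 read 12.97 and 9.05, a difference of 3.92, close to that on the other arrays, and TRIM22 read 7.71 in SU8686 and 4.90, not detected, in Panc1005, at least 3.31-fold higher. The member that was lower in SU8686 was ISG20, an exonuclease that degrades RNA, at 9.99 against 11.63. IFI27, widest on the other arrays, read 5.94 and 5.04 and was not detected on either.

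On slide 3, Panc1 exceeded MiaPaCa2 for 20 of the 40 members in replicates 1 and 3, and all 20 called members were higher in Panc1. The shares over all genes were 28.4% called, 14.8% higher and 13.7% lower. The median difference was 0.44, with 31 members above 0, and 8 members were called and at least 1 higher (1.47%). Among membrane and trafficking proteins 6 of 7 were called higher and among signalling genes 5 of 7. So were 2 of 4 GTPases and 2 of 3 genes of the ISG15 system. Of the sensors and RNA-binding effectors 4 of 13 passed the test, and of other effectors 1 of 7. The called GTPases, MX1 (5.92 against 5.16) and GBP2 (5.87 against 4.99), were each detected on 1 array of Panc1 and 0 of MiaPaCa2. The same held for BST2 among the membrane and trafficking proteins (6.39 against 5.29). Of the sensors, OAS1 was not detected in either line, and IFIT3 differed by 0.20 (adjusted p = 0.301).

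LGALS3BP, a secreted glycoprotein that binds galectins, read 5.5 and 5.3 in MiaPaCa2, where it was not detected, and 7.86 and 7.92 in Panc1, at least 3.58-fold higher (adjusted p = 1.8e-06). IFITM3, related to IFITM1, read 10.85 and 10.70 in MiaPaCa2 and 12.42 and 12.32 in Panc1, a difference of 1.60 (SE 0.105, adjusted p = 1.81e-05). ISG20 read 8.11 and 8.39 against 9.61 and 9.87, a difference of 1.49 (SE 0.122, adjusted p = 3.94e-05). PARP9, which takes part in ADP-ribosylation and in interferon signalling, read 7.58 and 7.55 against 8.82 and 8.74, a difference of 1.21 (SE 0.121, adjusted p = 0.00011). The arrays of the lines did not overlap in any of these genes.

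Replicate 2 of slide 3 again showed smaller differences. A difference of at least 1 was found for 2 members (0.897% of all genes), GBP2 at 6.28 in MiaPaCa2 and 7.53 in Panc1 (1.25) and MX1 at 6.25 and 7.30 (1.05). LGALS3BP came next, at 8.84 and 9.75 (0.91). The median difference was 0.23, with 32 members above 0.

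**Figure D2:**
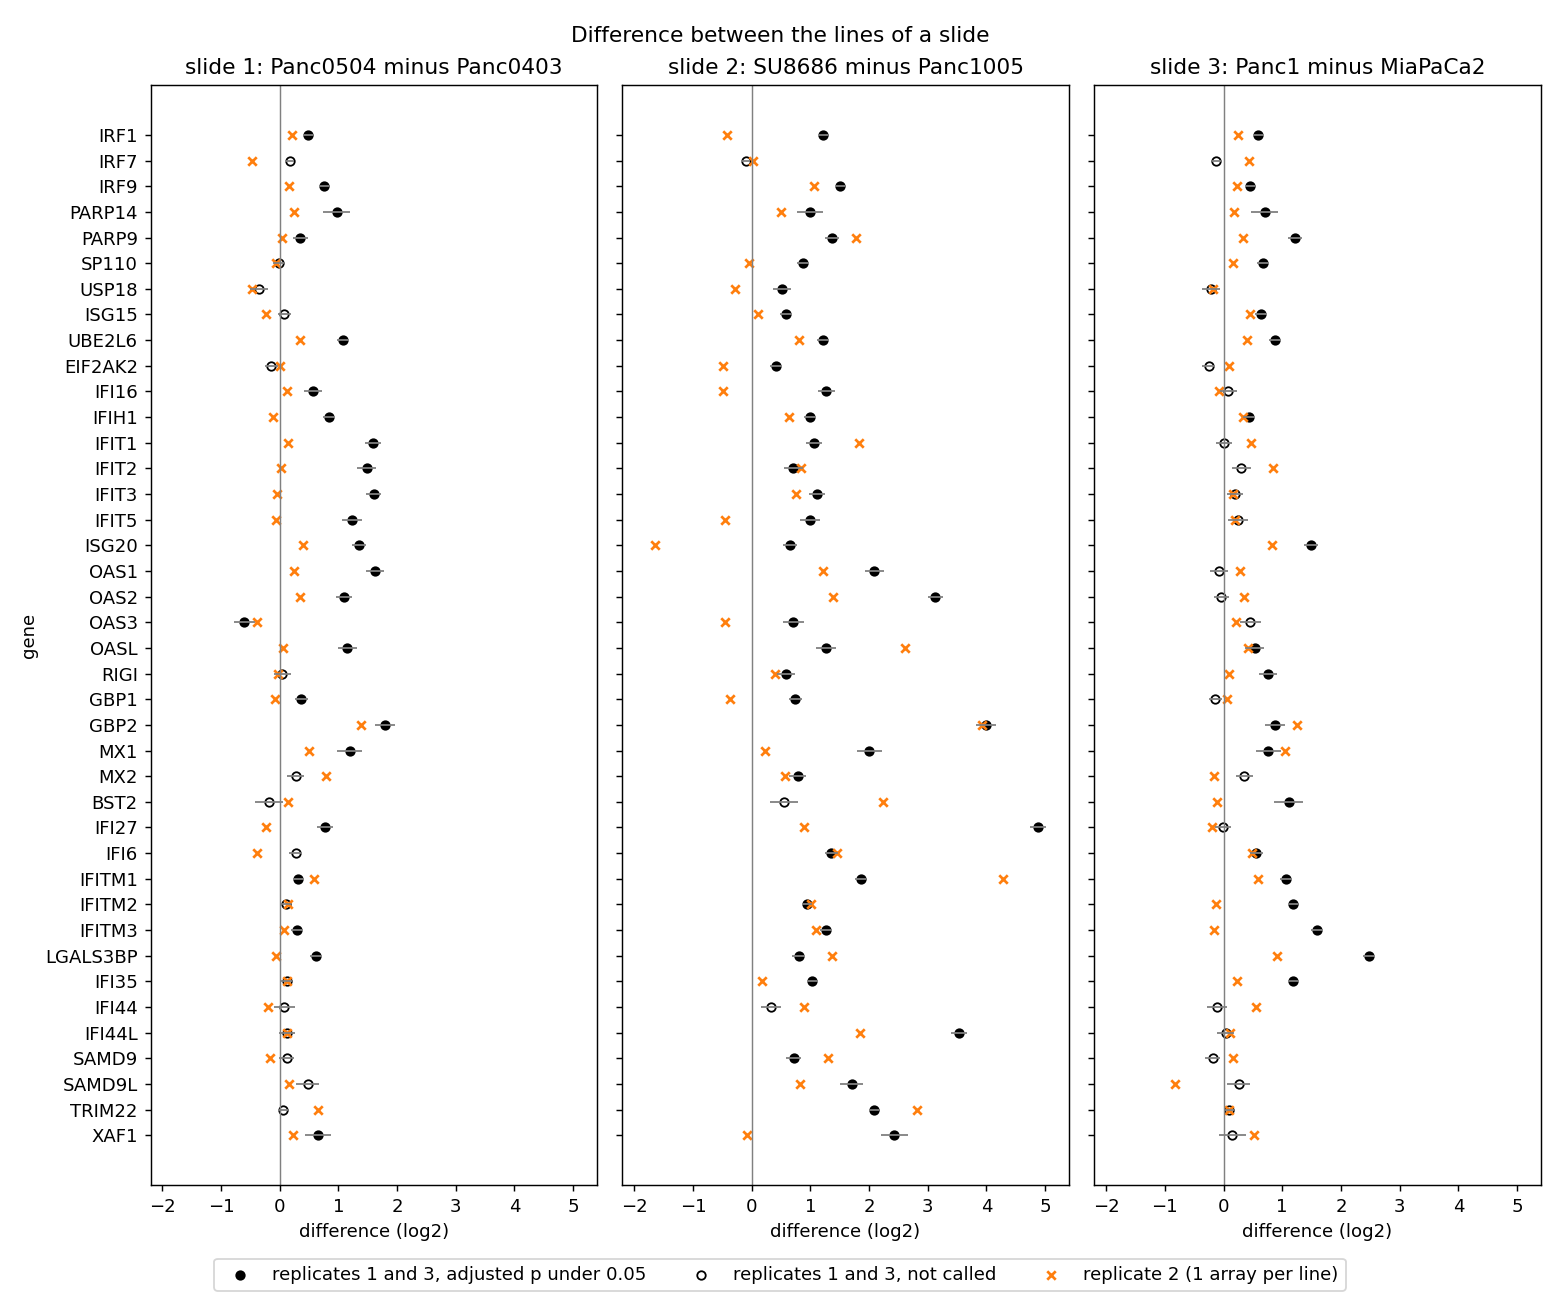
Difference between the later and the earlier line of each slide for the 40 genes (log2, later minus earlier), with the SE of limma's fit as bars on replicates 1 and 3 (filled circles: adjusted p under 0.05) and crosses for replicate 2, with 1 array per line. On slide 2, 37 circles are filled and right of 0, whereas most crosses of slides 1 and 3 lie within 1 of 0.

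The line at the later places was therefore the higher one for most called members on each slide. In replicates 1 and 3, 13 members were called and higher at the later places on all 3 slides (4.8% of all genes) and 29 on at least 2 slides (15.2%). The 13 were IRF9, IRF1, PARP9, PARP14, UBE2L6, IFIH1, ISG20, OASL, MX1, GBP2, IFITM1, IFITM3 and LGALS3BP. For MX1 and GBP2 the call on slide 3 came from readings near background, detected on 1 Panc1 array and 0 MiaPaCa2 arrays of replicates 1 and 3. UBE2L6 is the enzyme that conjugates ISG15, IFIH1 is the sensor of long double-stranded RNA also called MDA5, and OASL is a relative of OAS1 without its enzymatic activity. Being called lower at the later places on at least 1 slide happened for 1 member and for 32% of all genes. Without a test, 28 members had a higher mean at the later places on all 3 slides in replicates 1 and 3 (24.2%), and 15 did so in replicate 2 (21%).

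The distance of replicate 2 from the other arrays differed between slides. In Panc0403 the median of replicate 2 minus the mean of replicates 1 and 3 was 1.22, with 24 members at least 1 higher (8.82% of all genes) and 1 at least 1 lower (9.05%). Panc0504 was similar, with a median of 1.03, 21 members higher (10.9%) and 3 lower (11.4%). SU8686 went the opposite way, at -0.81, with 5 higher (14.5%) and 18 lower (13.5%). Panc1005 stood at -0.18, with 9 higher (14.7%) and 12 lower (13.4%). In MiaPaCa2 the median was 0.10, with 13 higher (13.2%) and 6 lower (11.2%), and in Panc1 -0.01, with 8 higher (13.7%) and 6 lower (11.4%). With replicate 2 alone, Panc0504 was the highest line for 12 members, Panc0403 for 11, SU8686 for 11, Panc1005 for 4 and Panc1 for 2.

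IFI27 had the widest swings. On slide 1 it read 8.95 and 9.17 in Panc0403 and 9.94 and 9.74 in Panc0504, but 15.003 and 14.77 on their replicate 2 arrays. On slide 2 the detected arrays of SU8686, at 10.45 and 10.03, stood against 5.94 on replicate 2, at least 18.9-fold lower. The 6 arrays of slide 3 read 4.82 to 5.04 and none was detected. Thus IFI27 was highest in SU8686 on replicates 1 and 3 and highest in Panc0403 on replicate 2.

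OAS2 moved the same way: replicate 2 read 10.25 in Panc0403 against 5.29 and 5.23, at least 17.8-fold higher, and 10.60 in Panc0504 against 6.15 and 6.56. In SU8686 it read 6.79 against 10.92 and 10.96, in Panc1005 5.41 against 7.75 and 7.88, in MiaPaCa2 5.30 against 6.24 and 6.44, and in Panc1 5.66 against 6.30 and 6.30. Replicate 2 was thus above the other arrays on slide 1 and below them on slides 2 and 3.

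GBP2 and MX1 differed from these, since replicate 2 was above both other arrays in all 6 lines. GBP2 read 5.05 and 4.93 in MiaPaCa2 and 5.58 and 6.17 in Panc1 on replicates 1 and 3, below all arrays of the other lines. IFITM1 read 7.99 and 8.03 in Panc0403, 8.47 and 8.19 in Panc0504, 10.55 and 10.51 in Panc1005, 12.42 and 12.35 in SU8686, 9.42 and 9.40 in MiaPaCa2, and 10.46 and 10.50 in Panc1. Replicate 2 of IFITM1 was below both other arrays in all 6 lines, at 7.48, 8.07, 5.37, 9.65, 6.05 and 6.64.

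LGALS3BP read 11.80 and 11.65 in Panc0403, 12.36 and 12.33 in Panc0504, 11.15 and 10.95 in Panc1005, and 11.87 and 11.83 in SU8686, so that the lines of slide 3 were far below. Its replicate 2 readings in these 4 lines, 12.37, 12.30, 10.98 and 12.35, were likewise above every array of slide 3. TRIM22 was detected on 5 arrays: both of SU8686 at 6.76 and 6.82, and replicate 2 of SU8686 at 7.71, of Panc0403 at 9.02 and of Panc0504 at 9.68. All its other arrays read 4.65 to 4.90.

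IFIT3 read 10.67 and 10.60 in Panc1005, 11.68 and 11.81 in SU8686, 8.53 and 8.61 in MiaPaCa2, and 8.55 and 8.98 in Panc1, so that the lines of slide 2 led on replicates 1 and 3. Its replicate 2 readings were 10.13 in Panc0403, 10.08 in Panc0504, 7.46 in Panc1005, 8.23 in SU8686, 6.45 in MiaPaCa2 and 6.61 in Panc1. The lines of slide 1 led on replicate 2, which was above the other arrays of a line on slide 1 and below them on slides 2 and 3.

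IFI44L was detected on both of replicates 1 and 3 in SU8686 alone. It read 4.67 and 4.80 in Panc0403, 4.95 and 4.76 in Panc0504, 4.63 and 4.73 in MiaPaCa2, and 4.74 and 4.70 in Panc1. On replicate 2 it was detected in both lines of slide 1, at 7.75 and 7.88, and of slide 2, at 6.24 in Panc1005 and 8.09 in SU8686, but not in MiaPaCa2 (4.59) or Panc1 (4.69).

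IFITM3 read 11.55 and 11.53 in Panc0403, 11.97 and 11.71 in Panc0504, 12.92 and 12.88 in Panc1005, and 14.11 and 14.24 in SU8686. Its replicate 2 readings, in the order Panc0403, Panc0504, Panc1005, SU8686, MiaPaCa2 and Panc1, were 12.64, 12.71, 12.79, 13.89, 13.35 and 13.18. MiaPaCa2, the lowest line on replicates 1 and 3, was second only to SU8686 on replicate 2.

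ISG20 read 10.29 and 10.22 in Panc0403, 11.62 and 11.59 in Panc0504, 10.10 and 10.19 in Panc1005, and 10.70 and 10.89 in SU8686, with replicate 2 in the same 6-line order at 9.72, 10.12, 11.63, 9.99, 9.03 and 9.86. Panc0504 was highest on replicates 1 and 3 and Panc1005 on replicate 2. PARP9 read 8.30 and 8.68 in Panc0403, 8.93 and 8.75 in Panc0504, 8.87 and 8.85 in Panc1005, and 10.19 and 10.26 in SU8686, with replicate 2 at 9.34, 9.38, 8.56, 10.34, 7.82 and 8.16. SU8686 was the highest and MiaPaCa2 the lowest line for PARP9 on both kinds of arrays.

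**Figure D3:**
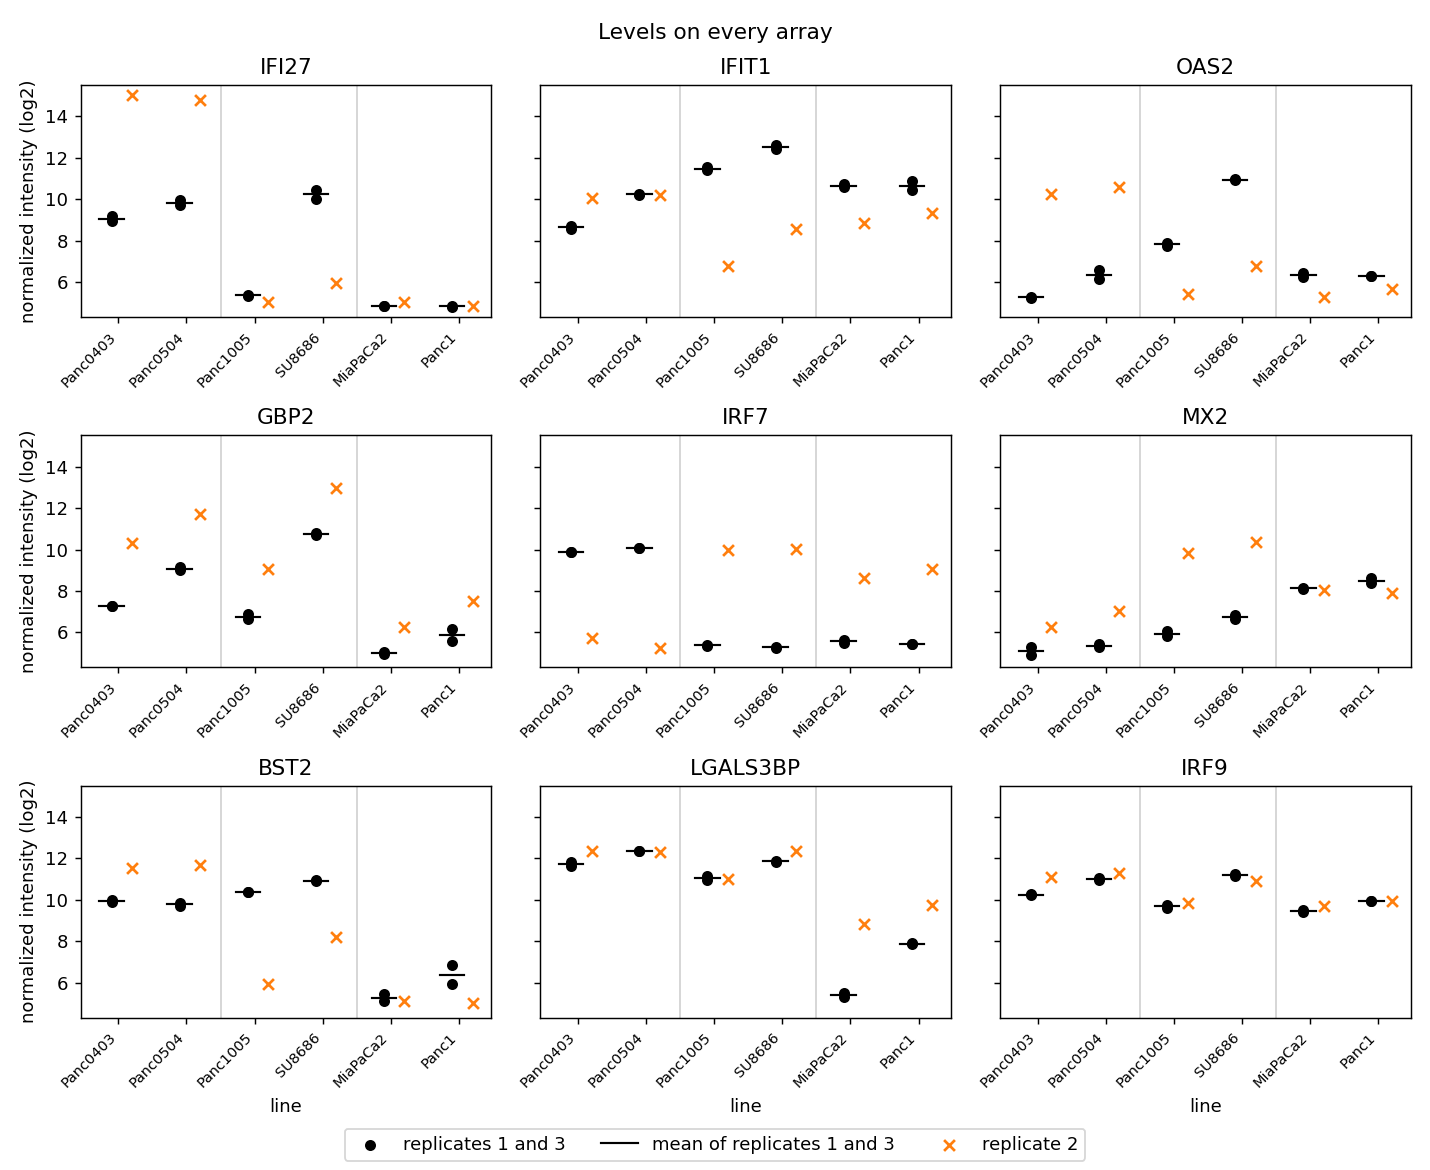
Normalized log2 intensity of 9 genes on every array, by line in slide order (grey lines separate slides). Circles are replicates 1 and 3, the bar is their mean and the cross is replicate 2: IRF7 is bright in Panc0403 and Panc0504 on circles and in the other lines on crosses, and IFI27 reaches 15.003 on replicate 2 of Panc0403.

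**Figure D4:**
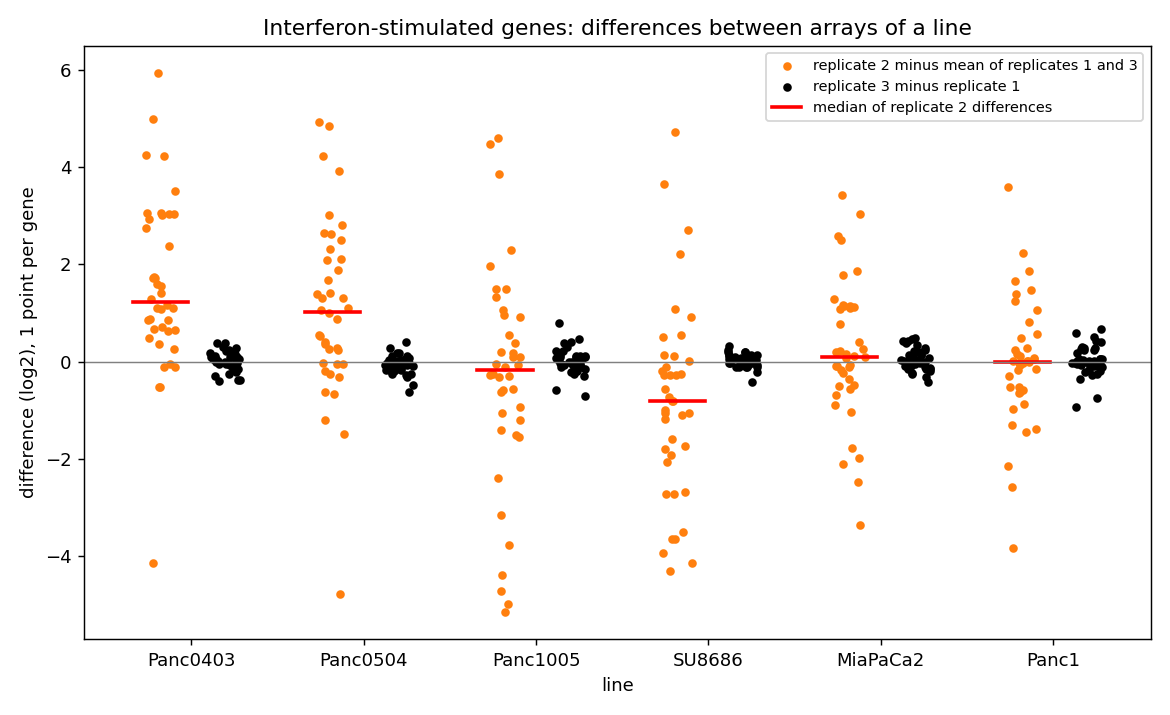
Differences between arrays of a line for the 40 genes (log2, 1 point per gene): replicate 2 minus the mean of replicates 1 and 3 at left, replicate 3 minus replicate 1 at right, and the median of the former as a bar. Replicates 1 and 3 stay within 0.944 of each other for every gene, and the medians of replicate 2 run from -0.81 in SU8686 to 1.22 in Panc0403.

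No member passed the test between resistant and sensitive lines. With the 6 line means as replicates, 0 of the 40 members passed limma's test (adjusted p under 0.05) and 0% of all 11600 genes did. At an unadjusted p under 0.05 there were 3 members, against 18.9% of all genes, and the line means of 2 members did not overlap between responses, against 21.8%. The resistant mean was the lower one for 29 members (46.9% of all genes), with a median difference of -0.26 (all genes 0.04). On replicates 1 and 3 the dimmest and the brightest line of the panel by median, MiaPaCa2 and SU8686, are both labelled resistant, and on replicate 2 the brightest by median was the sensitive Panc0504 (10.05, against 9.61 in SU8686). Without SU8686, 14 members were called lower in the resistant lines that remained, MiaPaCa2 and Panc1, which share slide 3 and are both dim. That contrast cannot be told apart from slide. Without Panc1005, 2 members were called, 1 of them higher. The share of all genes called without either line was not counted, so neither count singles out the panel.

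MX2, a nuclear pore-associated relative of MX1, ran opposite to most of the panel. It read 8.16, 8.06 and 8.12 on replicates 1 to 3 of MiaPaCa2, 8.37, 7.90 and 8.61 in Panc1, and 6.63, 10.38 and 6.82 in SU8686. In the sensitive lines it read 5.29, 6.25 and 4.89 in Panc0403, 5.31, 7.05 and 5.43 in Panc0504, and 6.04, 9.81 and 5.84 in Panc1005. It was detected on all 9 resistant arrays but on only 3 sensitive ones, all replicate 2. The line means, 8.12 ± 0.174 and 6.21 ± 0.911 (SD, n = 3 lines), differed by 1.91 (SE 0.456, adjusted p = 0.239 by limma), by 2.32 without replicate 2 (adjusted p = 0.316), and by 0.72 with slide as a block (adjusted p = 0.408).

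IRF7 had resistant line means at 6.69 ± 0.145 and sensitive ones at 7.96 ± 0.903 (SD, n = 3 lines), a difference of -1.26 (SE 0.450, adjusted p = 0.246 by limma), and -3.01 without replicate 2 (adjusted p = 0.316). With slide as a block its difference was -0.06. The line means of IRF7 average detected with undetected readings, and they did not overlap only with replicate 2 included. On replicates 1 and 3 the sensitive Panc1005 (5.38) lay between the resistant SU8686 (5.28) and MiaPaCa2 (5.57). SAMD9, a growth-restraining antiviral protein, read 9.79, 12.32 and 10.08 on replicates 1 to 3 of Panc0403, 10.01, 12.16 and 10.09 in Panc0504, 9.57, 8.93 and 9.43 in Panc1005, and 10.17, 10.24 and 10.26 in SU8686. MiaPaCa2 read 5.17, 6.24 and 5.04 and Panc1 5.05, 6.40 and 4.79, below every other array. The means of SAMD9 were 7.04 ± 2.76 and 10.26 ± 0.827 (SD, n = 3 lines), a difference of -3.22 (SE 1.33, adjusted p = 0.264 by limma), with SU8686 among the sensitive lines in level. With slide as a block, which rests on slide 2, the difference was 0.91 (adjusted p = 0.246).

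Likeness among members is given as a description, since the arrays share lines and slides. Over the 12 arrays of replicates 1 and 3, 38 of 40 members correlated at 0.5 or more with the mean of the other members, and 19.9% of all genes did so with the mean of the panel. The closest were IRF1 (r = 0.990), SAMD9L (r = 0.965) and IFI35 (r = 0.964), and the 2 members below 0 were IRF7 (r = -0.182) and MX2 (r = -0.384). With replicate 2 included, over 18 arrays, 33 members reached 0.5 (13.2% of all genes), with IFI44L (r = 0.923), IRF1 (r = 0.918) and ISG15 (r = 0.911) closest.

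Genes upstream of the panel were also measured, and the calls and differences given for them are those of replicates 1 and 3 unless stated. Of 21 interferon genes on the array, 18 were detected on 0 arrays, and only IFNA21 was measured, at 5.48 to 6.60. IFNA21 was detected on 3 arrays of Panc0504, 2 of Panc0403 and 0 of slides 2 and 3. It was called in 0 of the within-slide comparisons, and on slides 2 and 3 these set undetected readings against each other. Of 15 measured genes of interferon receptors and JAK-STAT signalling, 9 were higher and 0 lower in Panc0504, 7 higher and 1 lower in SU8686, and 4 higher and 1 lower in Panc1. Over all genes, 22.4% were called higher and 19.9% lower on slide 1, and 20.3% and 17.4% on slide 2. On slide 3 these shares were 14.8% and 13.7%. IFNGR2, a chain of the type II interferon receptor, was higher at the later places on every slide, by 0.95, 0.57 and 0.55. JAK2, a kinase of the type II receptor, was at least 1.29-fold higher in Panc0504 than in Panc0403, where replicates 1 and 3 did not detect it, and it was detected on 0 arrays of slide 3. On slide 2 the largest differences of this list were those of the phosphatase PTPN6, higher by 0.88 in SU8686, and of the other type II receptor chain IFNGR1, higher by 0.77. Of 14 measured nucleic acid sensing genes, 2 were higher and 3 lower in Panc0504, 7 higher and 2 lower in SU8686, and 1 higher and 0 lower in Panc1. On slides 1 and 3 these counts were near or below the shares over all genes. DHX58, the RNA-binding relative of RIGI also called LGP2, was the one higher in Panc1, by 0.67, and was higher by 1.46 in SU8686, where replicate 2 gave -0.37. CGAS, the DNA sensor that makes a cyclic dinucleotide, was lower by 1.2 in Panc0504. The adaptor TICAM1 was higher there by 0.92 (-0.23 on replicate 2), the endosomal RNA sensor TLR3 was higher by 1.07 in SU8686, and the kinase IKBKE differed by 0.52 on slide 3 without passing the test (adjusted p = 0.108).

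Markers of other cell types were read beside these differences. Of 11 leukocyte markers on the array 4 were measured and 7 were detected on 0 arrays, among them PTPRC, the common leukocyte antigen, and the T cell receptor chains CD3D and CD3E. The log2 of the summed linear level of the 4 was highest in SU8686, at 11.03 to 11.3 over its 3 arrays. It was 10.2 to 10.3 in Panc1005 and 9.29 to 10.8 in the other lines, and the summed levels below are of the same kind. CD14, a receptor for bacterial lipopolysaccharide, was higher by 3.17 in SU8686 than in Panc1005 on replicates 1 and 3 and by 2.85 on replicate 2. CSF1R was higher by 0.53 (adjusted p = 0.0458 by limma), but gave -0.34 on replicate 2. CD68 differed by 0.16 without passing the test (adjusted p = 0.15 by limma). LYZ was detected on 0 arrays of either line, but averaged 9.76 in Panc0403 and 9.91 in Panc0504 on replicates 1 and 3. The sum in SU8686 therefore does not describe the 4 markers as a set. On slide 1 the summed leukocyte level was 10.2 to 10.3 in Panc0403 and 10.3 to 10.6 in Panc0504. On slide 3 it was 9.29 and 9.29 on replicates 1 and 3 of MiaPaCa2 and 10.1 and 10.1 in Panc1. The summed fibroblast and endothelial level was 8.95 to 9.54 in Panc1005 and 10.5 to 10.7 in SU8686, and 7.91 to 9.06 on slide 1. The brightest of these genes in SU8686 changed between arrays. COL1A2 averaged 10.26 on replicates 1 and 3 but read 5.38 on replicate 2, and PECAM1 averaged 6.08 but read 10.07. COL3A1 was detected on 0 arrays of either line of slide 2. The summed epithelial level of the lines of slides 1 and 2 was 15.6 to 16.3 on all arrays, and KRT8, KRT18 and KRT19 were detected on all 18 arrays. In bulk RNA, fewer cells of a type and less RNA per cell cannot be told apart, and the part of these markers in the differences above was not tested.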

How the data were processed

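Total RNA of 6 pancreatic cancer cell lines, 3 arrays each, was hybridised to Illumina Human HT-12 v4 BeadChips. Per the file headers, the deposited intensity table holds, for 48107 probes per array, a linear intensity with its detection p-value, and neither background subtraction nor normalization is visible in the intensities. The authors' deposited series matrix holds log2 values of 47323 probes and served only as an alternative. The image software is not given in the sources used here.

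Intensities were background corrected by normexp from the detection p-values (offset 16), quantile normalized over 18 arrays and log2 transformed (neqc, limma 3.58.1, R 4.3.3), and differences of dim probes are understated. The platform annotation named 1 symbol for 30113 probes, several for 8, and the rest stayed unnamed. Of the named probes 30074 matched a current gene record. Each gene took the brightest of its detected probes on average, among genes detected (p under 0.01) on at least 3 arrays, which left 11600. Several detected probes were present for 12 members, and 0 of these had probes with opposite differences of over 0.5 within a slide.

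A limma fit of 12 means (6 lines, replicates 1 and 3 apart from replicate 2) took its spread from the 6 pairs of replicates 1 and 3, so its p-values measure the spread between those arrays. Response was tested on 6 line means, 3 against 3. Calls needed a Benjamini-Hochberg adjusted p under 0.05 over all 11600 genes. Pairs of single replicate 2 arrays had no test, and a log2 difference of at least 1 was counted. Where one side was not detected, the fold is a lower bound against the dimmest detected signal. The code was tested on simulated data. No replicate block was used in the tests reported. The number of arrays limits the precision.

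Values on every array are given for IRF9, IRF7, IRF1, ISG15, IFIT1, MX1, OAS1, BST2 and RIGI, for the 4 called members of largest difference per slide, the 3 of largest difference per slide on replicate 2, the 3 of smallest p for response, and the 6 of widest range over lines. Other members named were chosen as exceptions or after their values were seen. Of upstream lists, genes of largest difference per slide were named. The members, lists and rules were chosen with earlier results of these data known. 1 listed gene is not reported here. The alternatives were other background corrections and normalizations, detection filters, probe averaging, the replicate block, leaving out arrays or lines, and other ways to treat line and slide.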

Additional observations from a re-analysis of the deposited data

Results flagged for a closer look

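On replicate 2, 19 differences between the lines of a slide had the opposite sign to a difference that was called on replicates 1 and 3 without overlap of the arrays. Replicate 2 is 1 array per line with no spread of its own, so whether the differences differ was not tested. The share of all genes that changed sign in this way was not counted, so these counts do not single out the panel. On slide 1 (Panc0504 minus Panc0403) there were 6: GBP1 at -0.077, IFI27 at -0.24, IFIH1 at -0.11, IFIT3 at -0.050, IFIT5 at -0.060 and LGALS3BP at -0.068. Their values on replicates 1 and 3 ran from 0.37 (GBP1, not detected in either line there) to 1.60 (IFIT3). IFIT5 was not detected on replicate 2 of either line. On slide 2 (SU8686 minus Panc1005) there were 10. ISG20 was farthest, at -1.64 against 0.65. EIF2AK2 was at -0.49, GBP1 at -0.37, IFI16 at -0.49, IFIT5 at -0.46, IRF1 at -0.42, OAS3 at -0.45, SP110 at -0.049, USP18 at -0.29 and XAF1 at -0.078, against 0.42 (EIF2AK2) to 2.43 (XAF1). IFIT5 and USP18 were not detected on replicate 2 of either line. On slide 3 (Panc1 minus MiaPaCa2) there were 3: BST2 at -0.11 against 1.11, IFITM2 at -0.12 against 1.19, and IFITM3 at -0.17 against 1.60. BST2 was not detected on replicate 2 of either line. On replicates 1 and 3 it was detected on 1 Panc1 array and 0 MiaPaCa2 arrays.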

How the results depend on the processing

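Replicates 1 and 3 called 24, 37 and 20 members on slides 1, 2 and 3. When all 3 replicates of a line were pooled into 6 means, these counts were 0, 2 and 0 (limma, adjusted p under 0.05), and the count among the 6 lines was 23 in place of 40. Replicate 2, which stands apart, widens the spread in that fit. The shares of all genes called in this and the following alternatives were not counted, so these counts do not single out the panel. Leaving out each of replicates 1 and 3 in turn gave 18 to 22, 35 to 36 and 17 to 20 members on the 3 slides, and 40 to 40 among the 6 lines. The other background corrections, normalizations, detection filters and probe averaging gave 21 to 25, 35 to 39 and 18 to 21. On slide 3 all called members were higher in Panc1 except 1 with the authors' log2 values and 1 without replicate 3 of Panc1. With the replicate number as a block, the counts were 25, 37 and 21 within slides, 40 among the lines and, with the line as a random block, 1 for response. Same-numbered arrays deviated together in 21 of 45 pairs only (correlation of deviations over 0.1, range -0.088 to 0.938), so the numbers were not taken to pair the samples.

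For response, 0 members were called, and also 0 without any of replicates 1, 2 and 3. Leaving out a line gave 0 to 14: 14 without SU8686 and 2 without Panc1005, with the shares over all genes not counted. A fit to single arrays, in which line was a random block, gave 1. SAMD9 reversed to 0.914 with slide as a block (adjusted p = 0.246). On replicate 2, a difference of at least 1.5 in place of 1 was found for 0, 9 and 0 members in place of 1, 17 and 2. On slide 3 the count of 2 was 0 without background correction, with an offset of 50 and with the authors' log2 values. Members near background, 8 of them detected on 3 to 9 arrays, limit what these arrays can show.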
